A study of Fukomys damarensis and Heterocephalus glaber and Mus musculus with 160 samples.

Results

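Liver-only active enhancers of the mouse were taken as stretches of the 19 autosomes that carried the enhancer marks in liver and no mark in heart. They were chosen from peak lists by a rule. Peaks of a mark and tissue that overlapped a peak of another replicate by at least 50% of the shorter one were merged into consensus regions. Members were liver H3K27ac consensus regions that overlapped liver H3K4me1 by the same rule, did not overlap liver H3K4me3 and met no heart consensus region of H3K27ac, H3K4me1 or H3K4me3. Of 48375 liver H3K27ac consensus regions, 13098 were members, 27.1% (Wilson 95% interval 26.7% to 27.5%). Because the rule used the lists of both tissues, the presence of the liver marks and the lack of heart consensus regions are how the members were chosen and not findings.

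An enhancer is a stretch of DNA that raises the transcription of a gene from a distance. Nucleosomes beside an enhancer carry histone H3 with a single methyl group on lysine 4 (H3K4me1), and those of an enhancer in use are also acetylated on lysine 27 (H3K27ac). Trimethylated lysine 4 (H3K4me3) marks promoters, where transcription starts, so a region with H3K27ac and H3K4me1 but no H3K4me3 is usually read as an active enhancer away from a promoter. Enhancers differ between organs far more than promoters do, and those of liver are used largely by hepatocytes, the cells that make plasma proteins, bile and glucose.

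The marks were measured by chromatin immunoprecipitation and sequencing (ChIP-seq), in which an antibody pulls down crosslinked chromatin and the recovered DNA is sequenced. All mice were wild-type C57BL/6J males, adult and 2 months old. Liver was perfused with buffer before crosslinking and came from animals 85920, 85921, 85923 and 85924, each with all 3 marks. Heart gave 6 libraries of H3K27ac, 5 of H3K4me1 and 6 of H3K4me3 from 12 animals or pools, of which 45884_45885_45886 is named after 3 animals and counted as 1 replicate. Whole organs were diced, so every list mixes the cell types of the organ, and fewer cells of a type cannot be told apart from less of a mark per cell. The wider study profiled the same organs in mole-rats and the guinea pig, and its 116 lists held 8953087 peaks. No gene annotation of the mouse build of the files (GRCm38) was used here, so the tissues were not checked against marker genes and no gene is named for a region.

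Autosomal peak numbers were 55905 to 62480 for liver H3K27ac, 85495 to 112635 for liver H3K4me1 and 16921 to 18749 for liver H3K4me3. Heart lists varied more, from 20489 to 128372 peaks for H3K4me1. The lists give no read numbers, so the depth behind each of them is unknown. The heart H3K4me1 list of 33017, the one with 128372 peaks, is the only mouse list whose name carries a tag, 40M, which no label explains. No 2 libraries were alike enough to be one library deposited again: the shared bases divided by all covered bases (the Jaccard index) reached 0.831 at most, between a pair of liver H3K4me3 libraries.

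Libraries that stood apart from their groups numbered 3. The library labelled heart H3K4me3 6837 had a peak at 3040 members, against 0 to 75 in the other 5 heart H3K4me3 libraries. Heart-only active enhancers are the 15357 regions that meet the mirrored rule, which leaves out those with a heart H3K4me3 consensus region. Few peaks there thus follow from the choice: 6837 had a peak at 4 of them, against 6 to 936 in the other 5. Its Jaccard index was 0.525 to 0.560 with the 4 liver H3K4me3 libraries and 0.420 to 0.535 with the other heart H3K4me3 libraries, which had 0.441 to 0.777 among themselves and 0.504 to 0.630 with liver H3K4me3. Its likeness to the liver H3K4me3 lists by shared bases thus lay within the range of the other heart H3K4me3 libraries. With the liver H3K27ac lists its index was 0.371 to 0.380, against 0.161 to 0.227 for those libraries. With the liver H3K4me1 lists it was 0.196 to 0.205, against 0.0597 to 0.190. It also had more peaks at liver-only regions than any other heart H3K4me3 library, and the cause was not tested.

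The liver H3K4me1 library of 85924 had a peak at 69.2% of the members, against 85.3%, 91.8% and 90.5% in 85920, 85921 and 85923. It also had a peak at 19.5% of the heart-only active enhancers, against 2.02% to 2.91% in those 3 libraries. Its Jaccard index with them was 0.356 to 0.391, and theirs with each other was 0.547 to 0.571. The cause was not tested. The heart H3K4me1 list of the pool 45884_45885_45886 had a Jaccard index of 0.0767 to 0.107 with the other heart H3K4me1 libraries, which had 0.316 to 0.432 among themselves. It held the fewest H3K4me1 peaks, 20489, and had a peak at 12.4% of the heart-only active enhancers, against 56.0% to 91.2% in the other 4.

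Built without 6837 and 85924 the members numbered 12467, and without all 3 libraries 12497. Both ways found 12436 of the 13098 (94.9%) again. Which regions are members depended more on the rule: 70.1% of them were found with 3 replicates, 54.3% with an overlap of 50% of the longer region and 34.3% with equal numbers of peaks per library. That last setting takes H3K4me1 down to the 20489 peaks of the pool; with the pool left out, each H3K4me1 list keeps 70229 and 87.8% of the members were found.

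Among the 24352 liver active enhancers, the regions with H3K27ac and H3K4me1 but no H3K4me3, 53.8% were liver-only, and from this share, which the rule sets, nothing is read. The other 11254 also met a heart consensus region and are called heart-shared active enhancers. Heart H3K4me1 met 9876 of these and heart H3K27ac 8284. Heart H3K4me1 was the sole heart mark at 2898 and heart H3K27ac the sole one at 1210. By the mirrored rule, 55.8% of 27501 heart active enhancers were heart-only. With the same rule on the X chromosome, which the members leave out, 124 of 185 liver active enhancers had no heart region.

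The 50% overlap put few regions near its edge. Of the members, 12588 did not touch any heart consensus region, 372 touched one by less than 40% of the shorter region, and 138 lay just inside the rule with 40% to under 50%. Just outside it, 174 liver active enhancers had an overlap of 50% to under 60%. The regions just inside had a median width of 947 bases and those just outside of 932.5 bases. Their H3K27ac fold enrichment ranked at a mean percentile of 47.6 ± 1.94 and 49.1 ± 2.16 (SD, n = 4 animals) in their own lists, so neighbours across the edge resembled each other.

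Most members were seen in every animal. An H3K27ac peak was present in all 4 animals at 8022 members (61.2%, Wilson 95% interval 60.4% to 62.1%), in 3 at 2457 and in 2, the least the rule allows, at 2619. H3K4me1 was present in all 4 at 7198 members, and both marks in all 4 at 5287 (40.4%). By animal, H3K27ac peaks lay at 11172 members in 85920, 11510 in 85921, 11274 in 85923 and 10741 in 85924. The 4 animals were thus close for H3K27ac, and the gap between them lay in H3K4me1, where 85924 had a peak at 9068 members and the other 3 at 11176 to 12027.

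H3K4me3, which the members lack in the consensus, was also rare in single animals. A liver H3K4me3 peak lay at 121, 64, 22 and 151 members in 85920, 85921, 85923 and 85924. In all, 331 members (2.53%, Wilson 95% interval 2.27% to 2.81%) had one in at least 1 animal, and 21 had one in 2 or more animals.

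The members were short regions with a long tail of wide ones. Their median width was 926 bases, with quartiles of 591 and 1651 bases and a range from 266 to 19077 bases. Heart-shared active enhancers of liver were wider, with a median of 1150.5 bases and quartiles of 655 and 2132. Heart-only active enhancers had a median of 916 bases. Widths over 3 kb were reached by 977 members (7.46%) and by 14.1% of the heart-shared enhancers. The widest 5% of the members, 655 regions, held 19.1% of the 17.3 Mb that the members cover.

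Merging peaks of several animals widens a region, so the peaks of each animal were also read on their own. The median H3K27ac peak at the members was 584, 651, 620 and 629 bases wide in 85920, 85921, 85923 and 85924. At heart-shared enhancers it was 638, 736, 705 and 673 bases, and so wider in 4 of 4 animals, with a difference of −67.0 ± 21.2 bases, liver-only minus heart-shared (SD, n = 4). Each heart-shared enhancer also held more separate peaks, on average 1.45, 1.3, 1.33 and 1.38 in the 4 animals against 1.31, 1.2, 1.22 and 1.23 at the members. The classes come from the rule, so these differences are described and not tested.

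**Figure D1:**
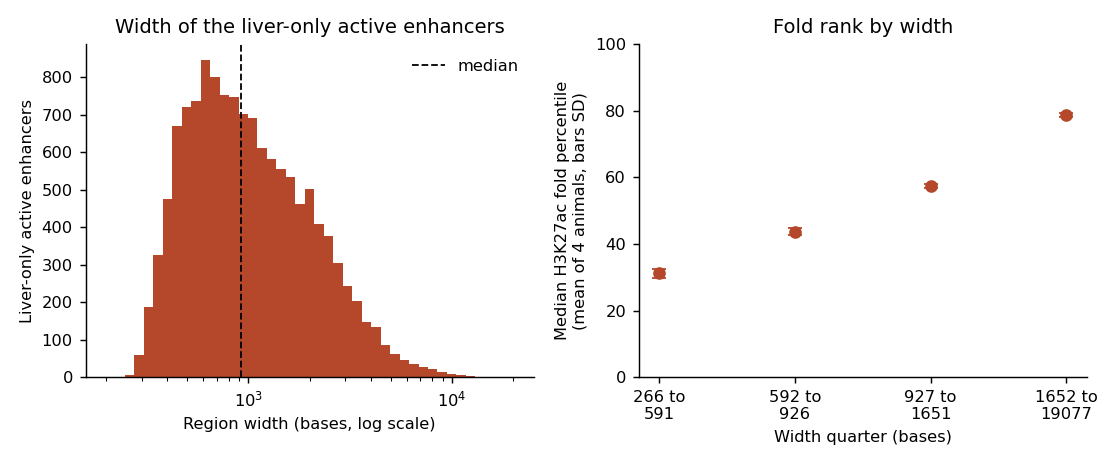
Left, the number of liver-only active enhancers (vertical) by region width in bases on a log axis, with the median of 926 bases dashed. Right, the median percentile of H3K27ac fold in each width quartile, as the mean of 4 animals with SD bars. The fold percentile goes from 31.1 in the narrowest to 78.7 in the widest quartile.

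Fold enrichment is the authors' own value for each peak, its signal over the local background in the caller's model. Its percentiles were taken within each list. Raw folds were averaged over the 4 animals only to pick and describe members. They were not scaled between lists, so a difference in raw fold between animals cannot be told apart from one between lists. For each member the highest peak was read in each animal. The median H3K27ac fold of the members was 7.50 in 85920, 6.94 in 85921, 7.18 in 85923 and 7.02 in 85924, and each list's own median over all autosomal peaks was 6.83, 6.22, 6.58 and 6.28. The lowest fold at a member was 2.08 and the highest 92.0. In its own list the median member ranked at the 55.6 ± 0.620 percentile (SD, n = 4 animals), and the median heart-shared enhancer at 55.0 ± 0.417. The members thus sat slightly above the middle of each list, where taking the highest of several peaks also raises a region, and 3 of 4 animals had the members above the heart-shared class.

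The strongest 10% of H3K27ac peaks were a little less frequent at the members. A peak in the top 10% of its list by fold stood at 5.45% ± 0.742 of the members with a peak and at 6.28% ± 0.871 of the heart-shared enhancers (SD, n = 4). The share was lower at the members in 4 of 4 animals, where heart-shared enhancers also held more peaks each.

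H3K4me1 differed more between the classes than H3K27ac did. At the members the highest H3K4me1 peak ranked at the 65.3, 69.8, 66.3 and 75 percentile in 85920, 85921, 85923 and 85924. At heart-shared enhancers it ranked at the 73.4, 75.1, 74.5 and 78.7 percentile. The members were lower in 4 of 4 animals, with a difference of −6.35 ± 2.20 percentile points (SD, n = 4). A peak in the top 10% of the H3K4me1 list stood at 17.6% ± 3.16 of the members and at 27.6% ± 2.02 of the heart-shared enhancers. Reading the highest peak favours regions with more peaks. Heart-shared enhancers held on average 1.34 to 1.48 H3K4me1 peaks each, against 1.27 to 1.34 at the members, and more in 4 of 4 animals. The part of this in the ranks was not tested. The H3K4me1 peaks at the members were also narrower in 4 of 4 animals, with a difference of −157.5 ± 20.8 bases (SD, n = 4).

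Wide members were also the strong ones. By quartile of width, the median H3K27ac fold lay between 4.86 and 5.31 over the 4 animals for members of 266 to 591 bases, and between 13.5 and 14.2 for those of 1652 to 19077 bases. The narrowest quartile had a peak in a given animal at 65.1% ± 3.25 of its members and the widest at 99.2% ± 0.783 (SD, n = 4). Across members, Spearman's rho between fold and width was 0.650, 0.669, 0.679 and 0.650 in 85920, 85921, 85923 and 85924. Width and fold come from the same peaks and are not separate measures.

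The order of the members by H3K27ac fold was shared in part between animals. Over the 6 pairs of animals Spearman's rho ran from 0.638 to 0.714 across 9382 to 10082 members with a peak in both. For H3K4me1 it ran from 0.286 to 0.330. Within an animal, rho between the folds of the marks was 0.331, 0.342, 0.313 and 0.279. Members are not independent replicates, so these values describe the lists and carry no test.

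The summit of a peak is its highest point. The distance from the summit of the strongest H3K27ac peak of a member to the nearest H3K4me1 summit of the same animal had a median of 125, 124 and 124 bases in 85920, 85921 and 85923, and 235 bases in 85924. At heart-shared enhancers the medians were 184, 201 and 196 bases in the first 3 animals and 183 in 85924. The summits thus lay closer together at the members in 85920, 85921 and 85923 and further apart in 85924, whose H3K4me1 library stood apart as described above. In those 3 animals 44.1% to 44.5% of the members had the summits within 100 bases of each other. H3K4me1 summits lay on both sides within 2 kb at 41.3% to 43.9%.

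A member usually met 1 H3K4me1 consensus region. This was so at 11511 members (87.9%), and 1285 met 2 of them and 302 met 3 or more. At 4898 members (37.4%) H3K4me1 reached beyond both ends of the H3K27ac region, and at heart-shared enhancers at 47.2%. The H3K4me1 stretch at a member had a median extent of 1299 bases, against 1828.5 at heart-shared enhancers.

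The 10 members with the highest mean H3K27ac fold, among those with a peak in all 4 animals, lay on 7 autosomes. Over all 8022 such members the mean fold had a median of 8.90 and a range from 2.82 to 68.7. The first was chr2:27620762-27628140 (GRCm38), 7379 bases wide, with a fold of 77.0 in 85920, 70.2 in 85921, 62.1 in 85923 and 65.7 in 85924. Its mean was 68.7 ± 6.43 (SD, n = 4), and its H3K4me1 fold was 6.69, 7.79, 9.11 and 17.9 in the same animals. Its H3K27ac values thus lay close together, all of them in the top 1% of their lists, while its H3K4me1 fold was highest in 85924, as at each of the 10. The whole H3K4me1 list of 85924 runs higher, with a median fold of 6.51 against 5.02 to 5.29 in the other 3.

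The second, chr13:24350163-24369239, was also the widest member at 19077 bases. Its H3K27ac fold was 55.9, 92.0, 43.8 and 71.0 in 85920, 85921, 85923 and 85924. The mean was 65.7 ± 20.8, so the raw folds of the 4 lists differed by more than at the first. The third, chr3:138222128-138231660, had 71.1, 74.3, 54.5 and 62.3. The fourth, chr7:35165547-35170964, had 67.9, 56.6, 66.4 and 70.2 and lay 51 bases from the next member, in a cluster of 4. The spread of raw fold was smaller at both than at the second, with SDs of 8.93 and 6.01.

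The next 4 were chr2:103712221-103716482 (mean fold 60.5 ± 4.27), chr2:173150519-173152757 (56.7 ± 8.41), chr16:45983180-45988277 (56.3 ± 10.3) and chr16:24220320-24230605 (55.2 ± 3.40; SD, n = 4 each). The ninth, chr18:12547811-12558602, had 35.4, 85.1, 48.5 and 47.8 in the 4 animals, with a mean of 54.2 ± 21.5 and its highest value in 85921. The tenth, chr10:24946700-24953132, had a mean of 53.8 ± 11.4. All 10 had a peak in the library labelled heart H3K4me3 6837. Without that library 7 of the 10 had no heart peak. The third had 1 in heart H3K27ac 73317, the fourth had 1 each in heart H3K27ac 17_36584 and 45884_45885_45886, and the tenth had 1 in heart H3K4me1 33017.

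Beside the second of the 10, the other widest members were chr8:40884155-40897891 at 13737 bases and chr2:103461086-103473849 at 12764 bases. The first of these had an H3K27ac fold of 22.3, 25.5, 53.1 and 39.0 in 85920, 85921, 85923 and 85924. The second had 25.7, 33.6, 15.8 and 28.2. Their mean folds, 35.0 ± 14.1 and 25.8 ± 7.45 (SD, n = 4), were below those of the 10 strongest members.

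Single heart libraries still had peaks at some members, since the rule asks only that no consensus of 2 or more libraries is met. None of the 17 heart libraries had a peak at 8211 members (62.7%, Wilson 95% interval 61.9% to 63.5%), and 1 library did at 3771. Without the library labelled heart H3K4me3 6837, none of the other 16 had a peak at 10637 members (81.2%, 80.5% to 81.9%). Most of the single-library peaks at members thus came with that library.

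The members with a peak in the library labelled heart H3K4me3 6837 were the wide and strong ones. These 3040 had a median width of 2178 bases, and the other 10058 had 755. Their median H3K27ac fold ranked at the 80.6, 79.6, 79.0 and 80.5 percentile in livers 85920, 85921, 85923 and 85924, and that of the others at the 45.5, 46.9, 44.8 and 45.5 percentile. A peak in another heart library was about as frequent in both, at 20.2% and 18.4%.

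To read heart signal from a library with no part in the choice, the members were rebuilt without each heart library in turn. The share with a peak in the library left out was taken. The rebuilt members still had to meet no consensus region of the remaining heart libraries. For H3K27ac the share was 0.404% in 6839, 0.791% in 6837, 1.01% in 33018, 1.79% in 17_36584, 5.65% in 45884_45885_45886 and 6.14% in 73317. For H3K4me1 it was 0.503% in 45884_45885_45886, 3.13% in 17_3500, 3.79% in 17_3501, 8.01% in 17_3498 and 14.8% in 33017. For H3K4me3 it was 0% in 33016, where 0 of 13098 allows up to 0.0229%, then 0.0382% in 6839, 0.0458% in 17_36584, 0.336% in 45884_45885_45886, 0.732% in 6842 and 23.4% in 6837. The ranges of the marks overlapped. Within H3K27ac and H3K4me1 the high shares belonged to libraries with many peaks: 73317 and 45884_45885_45886 had 107890 and 103270 H3K27ac peaks against 56671 to 67955 in the others, and the H3K4me1 list of 33017 had 128372 and that of the pool 20489. With equal numbers of peaks per library within a mark, H3K4me1 minus H3K27ac, which is 3.43 percentage points with all peaks, was 0.182 where the pool set the number of H3K4me1 peaks. It was 4.74 with the pool left out (adjusted exact permutation p = 0.0143, n = 4 and 6). That setting was chosen after seeing the data, and of 24 alternatives for this difference only 1, this one, passed the threshold of 0.05. Each H3K4me1 list then kept 70229 peaks and each H3K27ac list 55905, so the numbers were not equal between the marks.

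**Figure D2:**
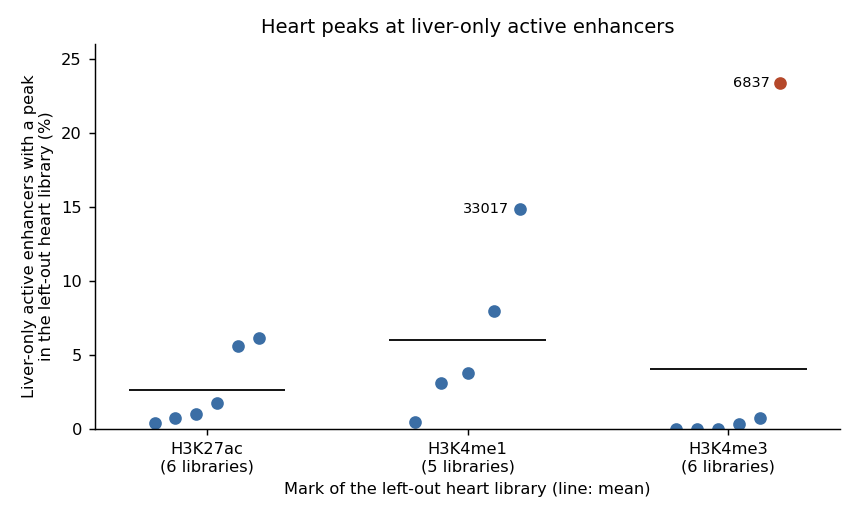
Each point is 1 heart library left out of the rule, with the share of the rebuilt liver-only active enhancers that had a peak in it (vertical, percent) by mark (horizontal), and each line is the mean of a mark. The library labelled heart H3K4me3 6837, at 23.4%, lies above every other library, and H3K4me1 33017 follows at 14.8%.

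The mean shares were 6.06% ± 5.61 for H3K4me1 (SD, n = 5), 2.63% ± 2.57 for H3K27ac (n = 6) and 4.09% ± 9.45 for H3K4me3 (n = 6). None of the 3 differences between marks exceeded the spread of the libraries (two-sided exact permutation tests, Benjamini-Hochberg adjusted over the 3). H3K4me1 minus H3K27ac was 3.43 percentage points (p = 0.214, adjusted p = 0.643), H3K4me1 minus H3K4me3 was 1.97 (p = 0.714, adjusted p = 0.998) and H3K27ac minus H3K4me3 was −1.46 (p = 0.998, adjusted p = 0.998, all exact permutation). The H3K4me3 mean rested on 6837: without it the mean was 0.230% ± 0.311 (n = 5). The H3K4me1 mean rested in part on 33017, and was 3.86% ± 3.11 without it (n = 4). H3K4me1 minus H3K27ac was then 1.23 and H3K4me1 minus H3K4me3 −0.231.

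Without 6837 among the means, the share was higher for H3K4me1 than for H3K4me3 by 5.83 percentage points (adjusted exact permutation p = 0.0476, n = 5 and 5). This passed the threshold of 0.05, but 6837 stands out by its own share in this same reading, 23.4%. Leaving it out is thus a choice tied to the outcome, here and in the values below. With every library the adjusted exact permutation p was 0.998. Without 6837 the heart H3K4me3 lists held 17536 to 31354 peaks, and the H3K4me1 lists held 20489 to 128372. Members are also chosen by liver H3K4me1 and by the lack of liver H3K4me3. Peak numbers were made equal only within a mark, so a difference between marks cannot be told apart from list size. H3K27ac minus H3K4me3 turned to 2.40 (adjusted exact permutation p = 0.0714, n = 6 and 5). With 6837 and liver H3K4me1 85924 left out of every step, the values were 5.88 (adjusted exact permutation p = 0.0476), 2.31 (adjusted p = 0.0682) and, for H3K4me1 minus H3K27ac, 3.57 (adjusted p = 0.182). With the heart H3K4me1 pool left out as well they were 7.39 (adjusted exact permutation p = 0.0238), 2.35 and 5.04 (adjusted p = 0.0619 for both). Library titles carry a series prefix, "do" or "vl", and 3 of the 5 H3K4me1 libraries were the only ones of the "vl" kind. Within the "do" series and without 6837, H3K4me1 exceeded H3K4me3 by 7.45 points with 2 libraries against 5 (adjusted exact permutation p = 0.143).

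The liver marks were read in the same way. Classes were rebuilt without each liver animal, and the share of liver-only and of heart-shared active enhancers with a peak in the animal left out was compared. H3K27ac recurred at 83.9% of liver-only against 86.8% of heart-shared enhancers in 85920, 86.8% against 88.5% in 85921, 84.9% against 87.8% in 85923 and 81.3% against 81.5% in 85924. The liver-only share was lower in 4 of 4 animals, with a mean difference of −1.94 ± 1.26 percentage points (SD, n = 4; exact sign-flip permutation p = 0.13, adjusted p = 0.188). The p is the smallest that 4 animals can give, so no difference in this design can pass the threshold of 0.05. A region of the wider class has more room for a peak, with median widths of 926 and 1150.5 bases, and the part of width in these shares was not tested.

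H3K4me1 recurred at 85.1% of liver-only and 85.6% of heart-shared enhancers in 85920, at 91.2% and 87.3% in 85921, at 89.8% and 90.0% in 85923 and at 67.8% and 83.8% in 85924. The difference was −0.475, 3.87, −0.155 and −16.0 points, so its mean of −3.19 ± 8.76 (SD, n = 4; exact sign-flip permutation p = 0.625, adjusted p = 0.625) rested on 85924. Without that animal in the mean it was 1.08. With the library of 85924 also left out of the classes, and the library labelled heart H3K4me3 6837 with it, it was −2.58 ± 2.23 (n = 3; exact sign-flip permutation p = 0.25, the smallest that 3 animals can give). The 3 animals then had −4.31, −0.0596 and −3.38 points. Where every list of a mark kept the same number of peaks, the difference was −10.9 points and all 4 animals were lower (−10.1, −5.84, −13.1 and −14.7 in 85920, 85921, 85923 and 85924). With the heart pool also left out it was −4.87, with 85921 higher by 2.06 points. The mean was thus negative in each of these ways except where 85924 was left out of the mean alone.

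H3K4me3 appeared at 2.06%, 1.01%, 0.324% and 2.43% of liver-only enhancers in 85920, 85921, 85923 and 85924 when each was left out. At heart-shared enhancers it appeared at 4.48%, 2.55%, 1.04% and 4.29%. It was lower at the liver-only class in 4 of 4 animals, with a mean difference of −1.63 ± 0.711 points (SD, n = 4; exact sign-flip permutation p = 0.13, adjusted p = 0.188). Without 6837 and the H3K4me1 library of 85924 the differences were −1.75 points for H3K27ac and −1.59 for H3K4me3.

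**Figure D3:**
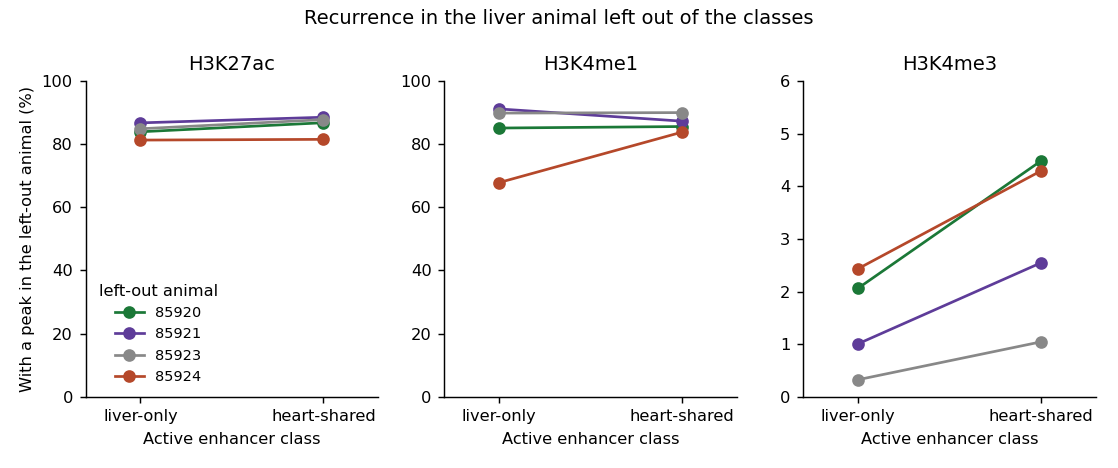
Each line is 1 liver animal left out of the classes, with the share of liver-only (left) and heart-shared (right) active enhancers that had a peak in it, in percent, for H3K27ac, H3K4me1 and H3K4me3. The H3K4me3 panel has its own scale up to 6%. The lines for H3K27ac and H3K4me3 go up in 4 of 4 animals, and for H3K4me1 animal 85924 starts at 67.8%.

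Members often lay near each other. The nearest other member lay a median of 3834.5 bases away, edge to edge, within 5 kb for 53.2% of them and over 100 kb away for 9.09%. Joined over gaps of up to 12500 bases, 8587 members (65.6%) fell into 3007 clusters of 2 or more, and 4511 stood alone. Heart-shared and heart-only active enhancers had 66.4% and 64.6% in clusters, so the overall share was much alike. Large clusters held fewer of the members: clusters of 5 or more held 14.3% of them, against 21.9% of the heart-shared and 19.2% of the heart-only enhancers. With 10 or more in a cluster there were 19 clusters of members, and 45 and 52 of the other classes.

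**Figure D4:**
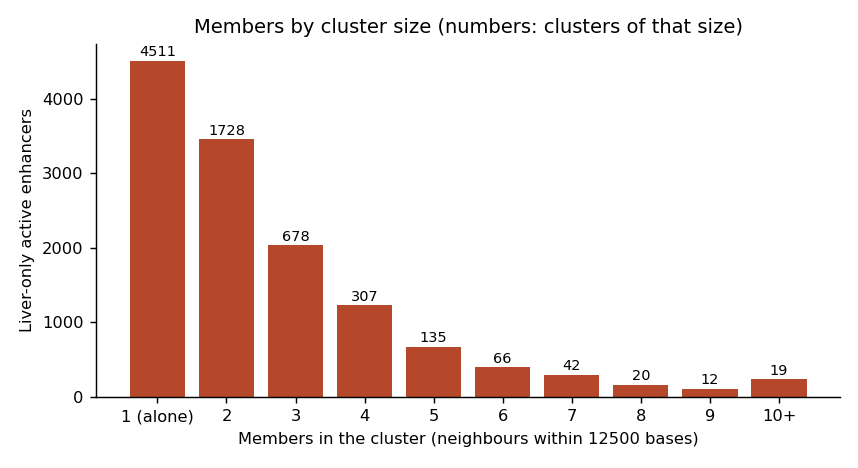
The number of liver-only active enhancers (vertical) by how many members their cluster holds (horizontal), with the number of clusters above each bar. The bar of 4511 members that stand alone is followed by 1728 pairs, and 19 clusters hold 10 or more.

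The neighbours of members were mostly members. Among all liver active enhancers, the nearest one to a member was itself liver-only for 74.8% (9793 of 13098, Wilson 95% interval 74.0% to 75.5%). For a heart-shared enhancer it was liver-only for 29.6% (28.8% to 30.5%). The liver-only share over all of them is the 53.8% given above. Built without 6837 and the H3K4me1 library of 85924, the values were 75% and 31.4%. Neighbours can be pieces of 1 stretch of acetylated chromatin, and the intervals cover counting error only.

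Members in clusters of 2 to 9 ranked slightly higher in strength than those alone, in 4 of 4 animals, and those in the largest clusters did so in 1 of 4. The median H3K27ac fold percentile was 53.7 ± 0.712 for members alone, 56.4 ± 0.565 in clusters of 2 to 4, 57.7 ± 2.00 in clusters of 5 to 9 and 53.9 ± 1.99 in clusters of 10 or more (SD, n = 4 animals). Median widths were 862, 932, 1055 and 971.5 bases in that order. A heart consensus region was touched, by less than the rule's overlap, by 5.76% of the members alone. The share was 2.95% in clusters of 2 to 4 and 3.12% in those of 5 to 9. It was 0.424% in the largest clusters, which hold only 236 members, so that share rests on very few regions.

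The cluster with the most members, 17, spanned 78.4 kb at chr10:89450713-89529153 (GRCm38). Its members were 428 to 4004 bases wide and covered 28.8% of the span, and H3K27ac peaks lay at 16, 13, 17 and 14 of them in 85920, 85921, 85923 and 85924. The span also held 1 heart-shared enhancer and 1 liver promoter-type region (H3K27ac with H3K4me3).

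The second, chr2:147926911-147999055, held 16 members over 72.1 kb that covered 50.7% of it, with no promoter-type region and no heart consensus region of any mark between them. Its median H3K27ac fold was 8.36, 10.6, 11.1 and 10.2 in 85920, 85921, 85923 and 85924, and the highest single fold was 55.7. Only 10 of its members had a peak in 85924, against 15 or 16 in the other animals.

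The third, chr9:53291665-53371954, held 16 members over 80.3 kb, covered 22.1% of it and enclosed 3 liver promoter-type regions, 2 heart H3K4me1 and 2 heart H3K4me3 regions. The fourth, chr1:88110537-88148680, was the most compact, with 14 members in 38.1 kb. The fifth, chr3:129545749-129607013, held 14 members over 61.3 kb, with the widest of them at 7869 bases. Neither the fourth nor the fifth contained a promoter-type region or a heart consensus region, so 3 of the 5 spans were free of heart marks in the consensus. The 5 were picked by their number of members, which by the rule meet no heart consensus region, so few heart regions there are favoured by the choice.

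Members lay further from promoters than heart-shared enhancers did. The nearest liver promoter-type region was a median of 19454.5 bases away, with quartiles of 6210.5 and 58043.5. For heart-shared enhancers the median was 14122 bases. Over 100 kb away were 14.8% of the members and 7.0% of the heart-shared enhancers. Of the 14351 liver promoter-type regions, 1058 (7.37%) met no heart consensus region. Such a liver-only promoter-type region was the nearest one for 16.1% of the members and for 4.74% of the heart-shared enhancers. These distances come from single consensus sets and carry no replicate error.

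Members were found on all 19 autosomes, from 428 on chromosome 18 to 944 on chromosome 2. Taking the span between the first and the last mouse peak as the length of a chromosome, the density was 5.46 per Mb over all. Chromosome 19 had the highest density, 8.57 per Mb, with 3.81% of the members on 2.43% of the span. It was followed by chromosome 11 (6.93), chromosome 9 (6.14), chromosome 6 (6.09) and chromosome 4 (6.02 per Mb). The lowest densities were those of chromosomes 14 (4.51), 12 (4.58), 3 (4.65), 7 (4.71) and 1 (4.75 per Mb). The highest was thus 1.90 times the lowest.

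With the marks of 1 liver animal taken alone, chromosome 19 was the densest autosome in 4 of 4 animals, at 10.4 per Mb in 85920, 10.5 in 85921, 10.1 in 85923 and 7.93 in 85924. The sparsest was chromosome 12 in 85920 and 85923 and chromosome 14 in 85921 and 85924. Built without 6837 and the H3K4me1 library of 85924, chromosome 19 had 8.09 and chromosome 14 had 4.30 members per Mb, again the highest and the lowest.

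Other enhancers were dense on some of the same chromosomes. Chromosome 11 had the most heart-shared enhancers (7.18 per Mb) and the most heart-only ones (9.29 per Mb), and chromosome 3 the fewest of both (3.02 and 4.74). Chromosome 19, the densest for members, had 6.15 heart-shared and 7.78 heart-only enhancers per Mb. Over all autosomes these were 4.69 and 6.40, so its high density was not particular to the members. Across the 19 autosomes Spearman's rho was 0.616 between the densities of members and heart-shared enhancers, and 0.384 between those of members and heart-only enhancers. The densities come from the same libraries and the same spans, and chromosomes are not replicates.

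The liver-only share of liver active enhancers ran from 48.2% on chromosome 17 (Wilson 95% interval 45.0% to 51.4%) to 62.6% on chromosome 13 (59.7% to 65.4%). It was 60.7% on chromosome 3, 58.3% on chromosome 1 and 58.2% on chromosome 19. Chromosomes 11 and 8 had 49.1% each. Chromosome 3, with few enhancers of any class, and chromosome 19, with many, thus both had a share above that of all autosomes, as the plot by autosome shows. The median width varied little, from 862.5 bases on chromosome 16 to 1022 on chromosome 15. The share in clusters ran from 58.9% on chromosome 17 to 70.5% on chromosome 3.

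**Figure D5:**
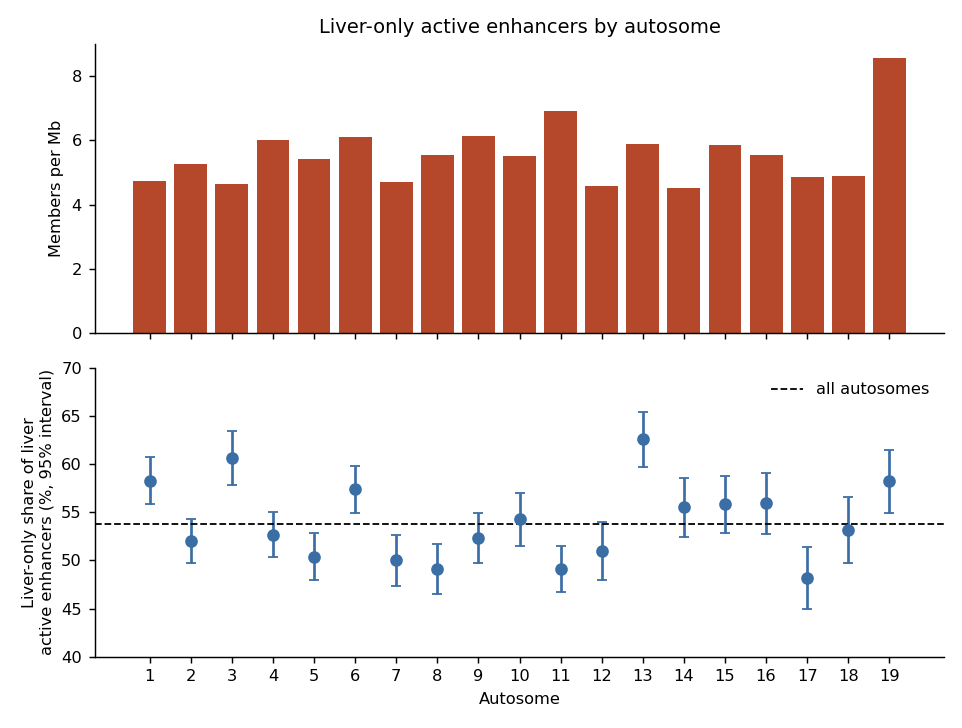
Top, liver-only active enhancers per Mb of each autosome, where chromosome 19 is highest at 8.57. Bottom, the liver-only share of the liver active enhancers of each autosome with Wilson 95% intervals, on an axis from 40% to 70%, with the 53.8% of all autosomes dashed and chromosome 13 highest at 62.6%.

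Within chromosomes the members were unevenly spread. Of 2411 windows of 1 Mb, 694 (28.8%) held no member, the median was 3, and 387 windows (16.1%) held 50% of the members. Windows without a heart-shared enhancer numbered 977 and those without a heart-only enhancer 736. Of the windows with no member, 221 held a heart-only active enhancer. Across windows Spearman's rho was 0.727 between the numbers of members and heart-shared enhancers, and 0.543 between members and heart-only enhancers. The fullest window, chr1:88000001-89000000, held 39 members, 4 heart-shared and 4 heart-only enhancers. It was followed by chr15:10000001-11000000 with 38 members and chr13:95000001-96000000 with 34. Each of the 5 fullest windows held more members than enhancers of the other classes together, but they were picked by their number of members. The fullest window of heart-shared enhancers held 47 of them and that of heart-only enhancers 56.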

How the data were processed

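Peaks were called with MACS2, per the submitters' processing notes, with its version and the aligner not given in the sources used here. Every list holds the peaks of 1 library against a named input on GRCm38, per the file names. The authors' fold enrichment is a linear ratio. Their −log10 p-values and −log10 q-values come from the caller, with 1.30 as the lowest −log10 q in the deposited mouse lists. The score the authors deposited, the whole part of 10 times −log10 q, was not used.

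Consensus regions, classes, gaps and shares were computed with Python 3.11.15, NumPy 2.4.6 and SciPy 1.17.1 and plotted with Matplotlib 3.10.9. Positions count from 1. The code was tested on simulated data of 4 liver and 4 heart animals: 600 of 600 planted liver-only enhancers were recovered, with 0 false ones. The simulated regions had equal widths and lay well apart, and replicates shared no noise peaks. This checks the code only and says nothing on error rates in the real lists. Named regions are the 10 members of highest mean fold with a peak in all 4 animals, the 5 clusters with the most members, the widest 3 members and every autosome; the fullest windows were chosen after their values were seen. Tests were two-sided exact permutation tests over libraries or animals, Benjamini-Hochberg adjusted over 3 marks or 3 pairs of marks, paired in liver because both classes are read in the same animal. Wilson intervals cover counting error only. Alternatives varied the overlap, replicates needed, threshold, peak number, heart evidence, cluster gap and libraries; leaving out the libraries that stand apart, the library series and equal peaks without the pool were chosen after seeing the data. The members and lists were chosen with earlier results of these data known. Gene lists, cell type markers and sequences were not analysed here, as no GRCm38 annotation or genome was at hand.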

Additional observations from a re-analysis of the deposited data

Results flagged for a closer look

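A single library stood far from the rest of its group, by the gap to its nearest neighbour relative to the range of the group, in 6 of the readings taken. Chance alone marks about 1 in 20 groups. Several of the 6 come from the H3K4me1 library of 85924 and are not separate events, so the 6 are not set against that rate. The library labelled heart H3K4me3 6837 had a peak at 23.4% of the members rebuilt without it. In the liver H3K4me1 library of 85924, 19.5% of heart-only active enhancers had a peak, and its median fold over peaks at the members was 8.82 against 5.56 to 5.76 in the other 3. In the same animal the median distance between H3K27ac and H3K4me1 summits at the members was 235 bases. The heart H3K4me3 pool 45884_45885_45886 had a peak at 6.09% of heart-only active enhancers, against 0.0260% to 0.970% in the other 5 libraries. With 1 liver animal at a time, the median width of liver-only active enhancers was 614 bases in 85920 and 630 to 633 in the others, a gap of a few bases. No cause was tested for any of them.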

How the results depend on the processing

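The number of members stayed within 1.5 times of 13098 except with equal numbers of peaks per library (6055) and where a peak in any single heart library removed a region (8287), but a like number need not be the same regions. In the order 50% of the longer region, 3 replicates, equal peaks and any heart library, the median width was 985, 1195, 1381 and 739 bases and the share in clusters 55.4%, 59.8%, 50.9% and 53.3%. Width was also 1010 bases at a −log10 q of at least 4. Settings chosen after seeing the data gave 952 bases without 6837 and 85924, 952 without all 3 libraries that stand apart, and 1019.5 with equal peaks and the heart H3K4me1 pool left out. The share in clusters was 53.2% with a gap of 5 kb and 75.5% with 25 kb. Leaving out each library or liver animal gave widths of 926 to 985 bases and shares of 62.6% to 66.7%. The H3K4me1 recurrence difference ran from −5.54 to 1.08 points as animals were left out, and was −10.9 with equal peaks. In heart, H3K4me1 minus H3K27ac ran from 0.182 with equal peaks to 5.05 within the do library series. Of 24 alternatives for it only 4.74, with equal peaks and no pool, passed the threshold, a setting chosen after seeing the data. H3K4me1 minus H3K4me3 ran from −0.231 without H3K4me1 33017 to 5.83 without H3K4me3 6837, with 5.88 without 6837 and 85924 and 7.39 without all 3. H3K27ac minus H3K4me3 ran from −2.28 to 2.40 without 6837, and was 2.31 without 6837 and 85924, 2.35 without all 3, 1.27 with equal peaks and 0.51 with equal peaks and no pool. Over 4 animals with both marks, the paired fit (replicate block) gave −3.79 points (exact sign-flip permutation p = 1.0), and unpaired tests of the liver differences for H3K27ac, H3K4me1 and H3K4me3 gave adjusted exact permutation p-values of 0.471, 0.8 and 0.343. The 4 paired heart differences were 1.74 points in 17_36584, 5.31 in 45884_45885_45886, 0.366 in 6839 and −22.6 in 6837. Their negative mean thus rested on 6837, whose H3K4me3 library stood apart. The 4 heart animals' pairing rests on their labels. Where no value is given beside a change, the cause was not tested. Unknown read depth limits every share.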
